A study of Oryza sativa with 35 samples.

Results

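Of 55801 loci counted in rice inflorescence meristems, 133 had at least 2 times the pooled level in tissues R4 and R5 that they had in tissues R1 and R2, in each of 2 rice lines. These loci were chosen by their late over early ratios and are described here. The pooled level is the summed unique molecular identifier (UMI) count of a set of libraries over their summed totals, in CPM (counts per 1000000 UMIs). A locus also needed 100 or more UMIs over the 35 libraries, which 9907 loci had. A stretch of chromosome 1 (LOC_Os01g02240 to LOC_Os01g18690), a stretch of chromosome 12 (LOC_Os12g32000 to LOC_Os12g41000), 3 named MADS-box loci and the genes of light-harvesting chlorophyll proteins (CAB/LHC) were left out beforehand, which left 9375 loci. Another 13 loci passed both ratios and were left out in this way, 6 of them in the chromosome 1 stretch, 3 in the chromosome 12 stretch, 2 MADS-box loci and 2 CAB/LHC genes. Late means R4 with R5 below, and early means R1 with R2. The labels do not say what the codes stand for, so no stage of the panicle is given to them.

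The inflorescence meristem of rice forms primary and secondary branches and then spikelets, and its cells pass from proliferation to the formation of bracts, glumes and floral organs. The outermost cell layer of shoot and floral meristems becomes the epidermis. There, transcription factors of the HD-ZIP IV class (the ROC genes in rice) act in the identity and differentiation of epidermal cells, and very-long-chain fatty acid enzymes supply waxes and cutin. SPL genes code for plant-specific transcription factors with an SBP DNA-binding domain, several of which are targets of the microRNA miR156 and shape tillers, panicle branches and organ surfaces.

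The libraries were made by CEL-Seq2, which tags the 3′ end of polyadenylated RNA with UMIs and amplifies it linearly, from 100 pg of RNA with 11 to 15 PCR cycles. Both lines were grown in chambers under short days (10 h light, 27 °C, then 14 h dark, 25 °C). NIL-Gn1, a near-isogenic line named for the grain number locus Gn1, had 8, 8, 1 and 2 libraries at R1, R2, R4 and R5. Koshihikari, a japonica cultivar, had 5, 5, 3 and 3. The donor of the segment and the number of plants per library are not stated in the labels, so a p-value reflects library-to-library spread, which may be technical.

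Library totals were 76743 to 375071 UMIs, and 3 counts, the limit that a count of 0 allows, equalled 8.00 to 39.1 CPM. Koshihikari R2 replicates 1, 4 and 5 stood apart from replicates 2 and 3: their 10 highest loci took 11.9%, 10.6% and 10.1% of UMIs, against 8.40% and 7.09%. Replicate 1 also stood apart from the other 4 by the chi-square per degree of freedom between libraries (2.97 to 3.22, against 1.37 to 1.87 among the others). Its cell cycle genes summed to 615 CPM, against 1111 to 1281 CPM, and its meristem markers to 817 CPM, against 1266 to 1450 CPM. Without replicate 1 the rule gave 138 loci, of which 129 were among the 133, and without replicates 1, 4 and 5 it gave 134, of which 128 were. The meristem markers fixed for the check (OSH1, OSH15, TAW1, RFL, APO1, LAX1, FON1, FON2, MOC1 and TAB1) summed to 733 to 1029 CPM in late and 975 to 1567 CPM in early NIL-Gn1 libraries, and to 456 to 621 CPM in late and 817 to 1510 CPM in early Koshihikari libraries. FON2 was at 0 in every library, and TAB1 and APO1 had 1 and 8 UMIs in all. CAB/LHC genes, which mark green tissue, summed to 888 to 1644 CPM in late and 393 to 1405 CPM in early NIL-Gn1 libraries, and to 1198 to 3443 CPM in late and 504 to 1217 CPM in early Koshihikari libraries. Most of the drop in the meristem sum came from TAW1, at 386 CPM late and 719 CPM early in NIL-Gn1 and 130 CPM late and 801 CPM early in Koshihikari. Other markers were mixed. Late over early ratios were 0.838 in NIL-Gn1 and 0.804 in Koshihikari for OSH1, and 0.712 and 0.486 for OSH15. For MOC1, with 27 UMIs in all, they were 0.306 and 0.236, and APO1 was at 0 CPM late in both lines. The ratios were 1.24 in NIL-Gn1 and 0.646 in Koshihikari for RFL, and 1.02 and 1.80 for FON1. LAX1, which had 48 UMIs in all, had 1.13 and 3.50. The summed marker levels thus moved with tissue code, and their part in the late levels below was not tested. In bulk RNA such as this, more cells of a type and more RNA per cell cannot be told apart.

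The 133 loci were 1.42% of the 9375. The first ratio alone, in NIL-Gn1, was met by 280 loci (2.99%), and that in Koshihikari by 394 (4.2%), so the 133 loci made up 47.5% of the NIL-Gn1 loci and 33.8% of the Koshihikari loci. Since the rule used these ratios, they are given as a description with no test. The median late over early ratio of the members was 3.23 in NIL-Gn1 and 3.66 in Koshihikari. The median log2 ratio of all 9375 loci was -0.11 in NIL-Gn1 and -0.14 in Koshihikari, so a typical locus stood slightly lower late on this scale. Both ratios were 4 or more in 43 members and 10 or more in 17, while the lower of the 2 ratios was under 3 in 75. The ratio was larger in Koshihikari in 76 members and larger in NIL-Gn1 in 57, where it was larger in Koshihikari for 49% of all loci. Over the 133 members, the ratios of the 2 lines had a Spearman correlation of 0.66, against 0.27 over all loci. UMIs were present in all 4 pools for 132 members, and the other, with none early in Koshihikari, was ranked highest in that line. The loci were measured in the same libraries, and members were chosen for high values in both lines.

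**Figure D1:**
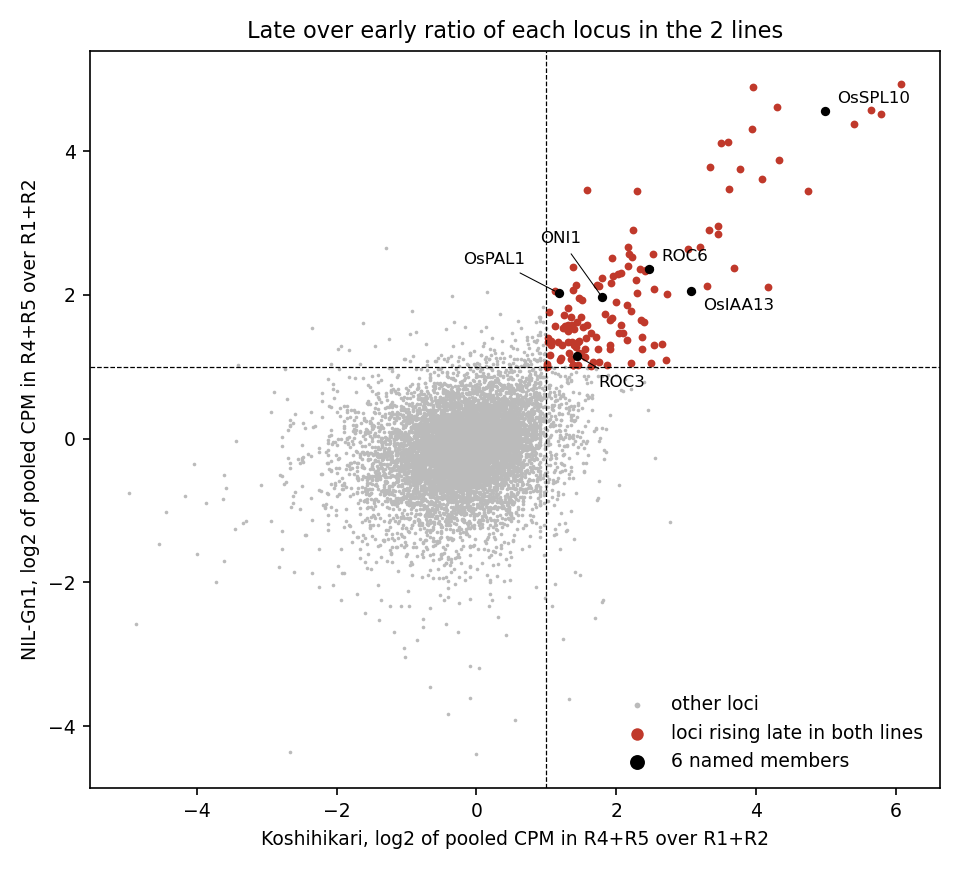
Log2 of the late over early pooled CPM of each locus in Koshihikari (x axis) and NIL-Gn1 (y axis), for loci with 100 or more UMIs that were not left out and had UMIs in every pool. Grey points are other loci, red points the members and black points 6 named members, with dashed lines at the ratio of 2 in each line. Members fill the upper right corner by construction, and OsSPL10 lies near its far end.

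The members held few UMIs each, from 100 to 3230 with a median of 233. Counting error alone was therefore wide for many: the exact 95% interval of the ratio, given its counts, lay wholly above 2 in both lines for 59 members. At the edge of the rule, LOC_Os08g04460 was just inside with ratios of 2.00 in NIL-Gn1 and 2.01 in Koshihikari, as was LOC_Os01g18800 with 2.05 and 2.01. LOC_Os05g08770 fell just outside with 1.996 and 2.41, and LOC_Os04g39150 with 1.99 and 2.08. Another 7 loci passed both ratios with 90 to 99 UMIs.

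Summed over the 133 loci, the share of a library's UMIs was 2.30%, 2.90% and 1.73% in the late NIL-Gn1 libraries (R4 replicate 1, then R5 replicates 1 and 2), against 0.412% to 0.820% (median 0.609%) in the 16 early ones. In Koshihikari it was 1.55% to 3.01% (median 2.13%) in the 6 late libraries, against 0.513% to 0.675% (median 0.561%) in the 10 early ones. Late and early libraries did not overlap in either line. Without the 10 members of most UMIs the share was 1.03% to 2.06% late and 0.225% to 0.518% early. Each member was chosen for a higher late level, so these sums had to be higher late and are a description. Late libraries had UMIs of 130 to 133 of the members, and early ones of 94 to 131. The members were thus mostly detected early as well, with a median pooled level of 96.6 CPM late and 27.0 CPM early in NIL-Gn1, and of 90.5 CPM late and 24.0 CPM early in Koshihikari.

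**Figure D2:**
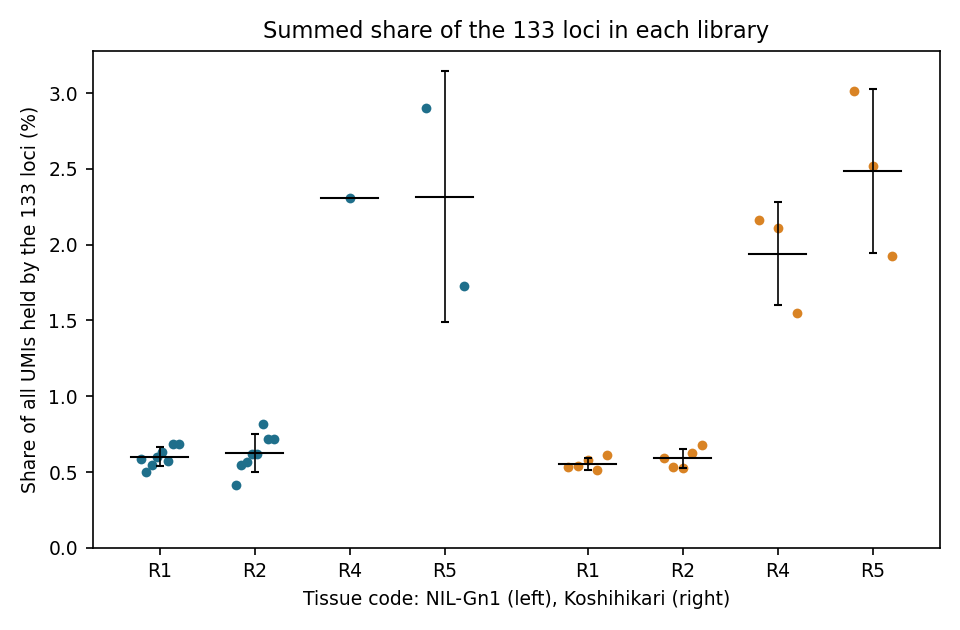
Share of all UMIs held by the 133 loci (y axis, percent) in each library, by tissue code within NIL-Gn1 (left, blue) and Koshihikari (right, orange). Points are libraries, horizontal lines means and bars SD where a group has more than 1 library. Late libraries lie between 1.55% and 3.01%, above all early ones.

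Single loci were noisier than their sum. Every late library was above every early one in 60 members in NIL-Gn1, in 51 in Koshihikari and in 33 in both. Over all 9375 loci these shares were 1.13%, 1.16% and 0.416%, and the rule used this contrast. Taken alone, R4 was at 2 times the early level or more in 111 members in NIL-Gn1 and 112 in Koshihikari. R5 alone was so in 111 in NIL-Gn1 and 128 in Koshihikari, and all 4 late groups were so in 77. NIL-Gn1 has 1 library at R4, so its R4 values have no replicate check.

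**Figure D3:**
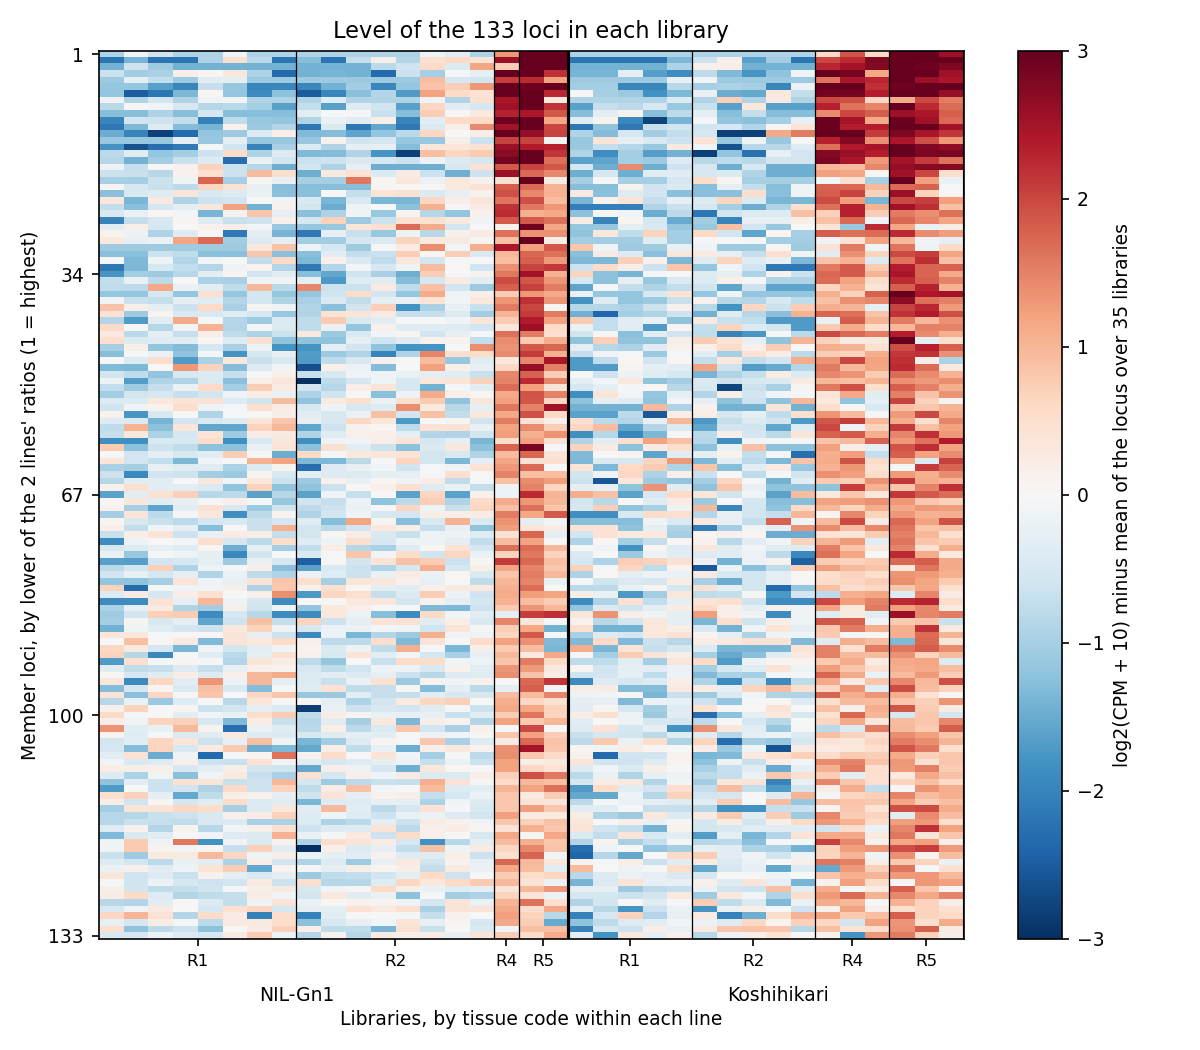
Level of each member (rows, ordered by the lower of its 2 late over early ratios, highest at the top) in each of the 35 libraries (columns, by tissue code within NIL-Gn1 and then Koshihikari). Colour gives log2(CPM + 10) minus the mean of the locus over all libraries. The rows at the top are high in nearly all late libraries, and lower rows differ less.

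Among the lists of known genes used for description, the epidermis list of 8 ROC genes and ONI1 gave the most members. Of its 9 genes 6 had enough UMIs, and 3 of them were members: ROC6, ROC3 and ONI1. Members were 1.42% of all loci. The list was chosen with earlier results of these data known, and the count is not tested.

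ONI1 (LOC_Os03g08360) codes for a fatty acid elongase enzyme, a β-ketoacyl-CoA synthase needed for normal outer cell layers and to keep young organs from fusing. It had 1084 CPM at R4 and 1372 and 665 CPM at R5 in the late NIL-Gn1 libraries, against 168 to 442 CPM (median 287) in the early ones. Koshihikari libraries had 1089, 1009 and 676 CPM at R4 and 1268, 1066 and 817 CPM at R5, against 144 to 459 CPM (median 285) early. Its late and early libraries did not overlap in either line, and its pooled ratio was 3.90 in NIL-Gn1 (95% counting interval 3.52 to 4.33) and 3.48 in Koshihikari (3.07 to 3.96).

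ROC6 (LOC_Os09g35760), an HD-ZIP IV transcription factor gene, had 203 CPM at R4 and 84.2 and 91.2 CPM at R5 in late NIL-Gn1 libraries, against 7.03 to 69.8 CPM (median 28.7) early. In late Koshihikari libraries it had 64.0 to 216 CPM (median 117), against 0 to 73.0 CPM (median 22.2) early, so that the lowest late and highest early libraries overlapped. The ratio was 5.14 (3.75 to 7.04) in NIL-Gn1 and 5.52 (3.59 to 8.74) in Koshihikari. In the R4 libraries of Koshihikari, replicate 3 stood at 216 CPM and the others at 64.0 and 65.7 CPM.

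ROC3 (LOC_Os10g42490), of the same class, was measurable in early tissue too and had smaller ratios, 2.22 (1.76 to 2.80) in NIL-Gn1 and 2.72 (2.13 to 3.48) in Koshihikari. It had 251 CPM at R4 and 119 and 130 CPM at R5 in NIL-Gn1, against 60.4 to 145 CPM (median 78.9) early, and these overlapped. Koshihikari had 146 to 310 CPM (median 234) late, against 38.4 to 138 CPM (median 85.5) early, and these did not. The other eligible ROC genes did not meet the rule: ROC1 had ratios of 1.07 in NIL-Gn1 and 1.18 in Koshihikari, ROC2 1.23 and 1.21, and ROC5, known for its part in leaf rolling, 1.04 and 2.43. ROC4, ROC7 and ROC8 had 93, 66 and 20 UMIs, under the minimum. The ROC genes that were not members summed to 326 to 499 CPM in late and 268 to 671 CPM in early NIL-Gn1 libraries, and to 338 to 664 CPM in late and 223 to 587 CPM in early Koshihikari libraries, which overlapped in both lines.

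OsSPL10 (LOC_Os06g44860), an SPL gene that promotes the formation of leaf hairs (trichomes), had the largest ratios of the 6 members with a gene name. It had 523 CPM at R4 and 619 and 221 CPM at R5 in NIL-Gn1, against 0 to 53.9 CPM (median 16.05) early. In Koshihikari it had 393, 362 and 103 CPM at R4 and 557, 556 and 287 CPM at R5, against 4.02 to 36.5 CPM (median 9.77) early. Every late library was above every early one in both lines, and the ratio was 23.5 (17.92 to 31.3) in NIL-Gn1 and 31.6 (19.1 to 56.0) in Koshihikari. Of the 13 SPL genes with enough UMIs it was the 1 member. OsSPL8, the LIGULELESS1 gene needed for the leaf's ligule and auricles, had 70 UMIs and so fell under the minimum, with 50.9 CPM late and 5.41 CPM early in NIL-Gn1 and 34.0 CPM late and 0.751 CPM early in Koshihikari. OsSPL14, known for its effect on panicle branching, had ratios of 1.22 in NIL-Gn1 and 0.94 in Koshihikari, and OsSPL17, 1.41 and 1.28.

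A pair of further members was named after their values were seen. OsIAA13 (LOC_Os03g53150) codes for an Aux/IAA protein, a repressor of auxin-responsive genes that auxin causes to be degraded. It had 96.3 CPM at R4 and 213 and 143 CPM at R5 in NIL-Gn1, against 14.0 to 60.5 CPM (median 28.2) early. Koshihikari libraries had 84.5 to 264 CPM (median 178) late, against 0 to 97.4 CPM (median 17.1) early, and the overlap came from R2 replicate 5. Its ratio was 4.14 (3.06 to 5.58) in NIL-Gn1 and 8.38 (5.57 to 13.01) in Koshihikari. OsPAL1 (LOC_Os02g41630) codes for a phenylalanine ammonia-lyase, the entry enzyme of phenylpropanoid and lignin synthesis. It had 330 CPM at R4 and 733 and 221 CPM at R5 in NIL-Gn1, against 35.8 to 216 CPM (median 94.4) early. In Koshihikari it had 146, 155 and 178 CPM at R4 and 480, 383 and 177 CPM at R5, against 12.1 to 146 CPM (median 124) early. Late libraries were above early ones in both lines, by a margin of less than 1 CPM between the closest Koshihikari libraries, and the ratio was 4.07 (3.45 to 4.81) in NIL-Gn1 and 2.26 (1.81 to 2.82) in Koshihikari.

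**Figure D4:**
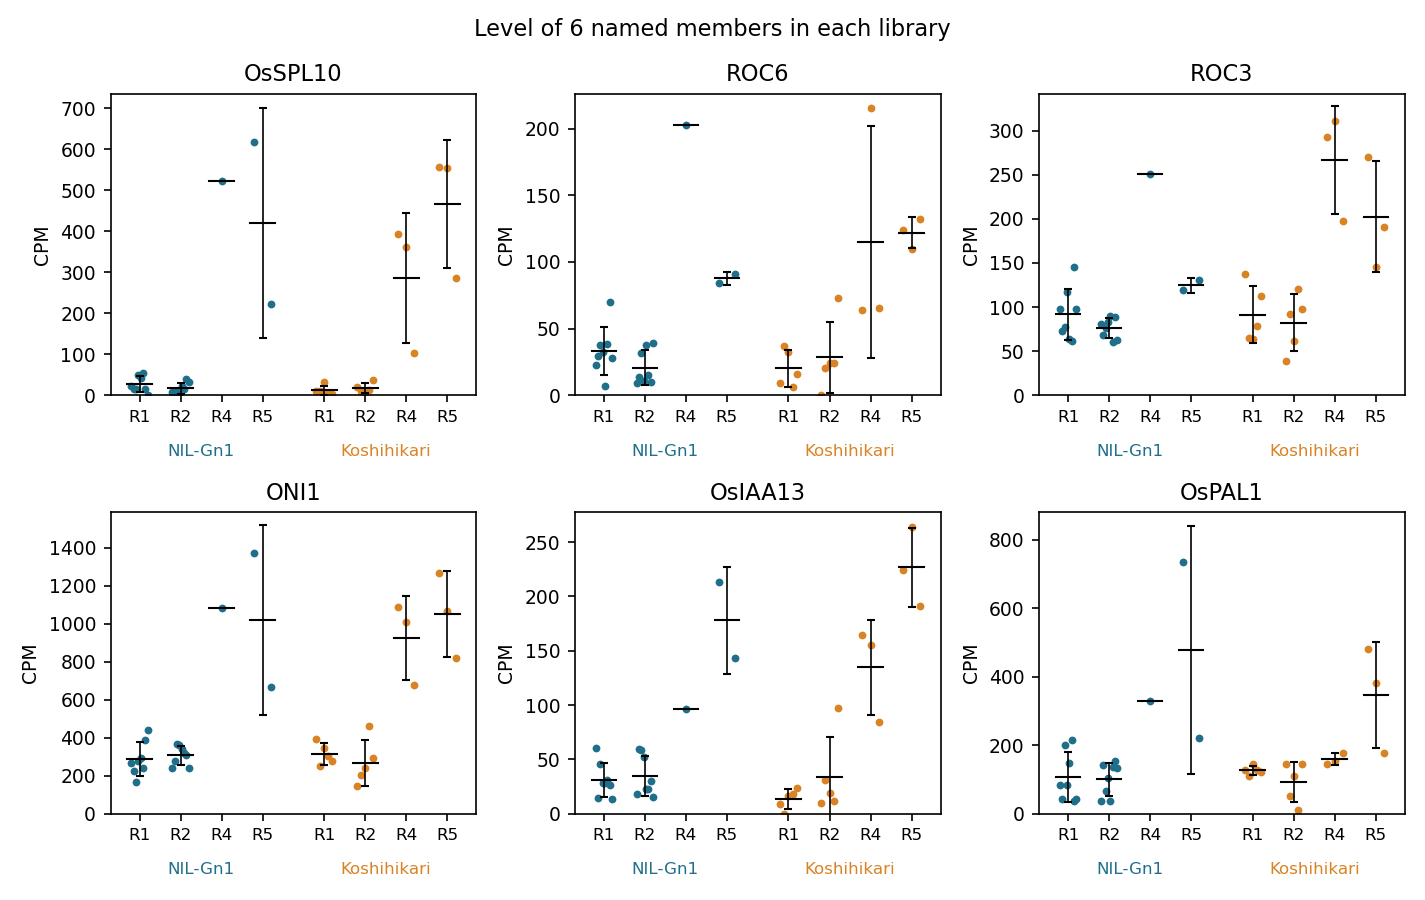
CPM of 6 named members in each library (y axes start at 0 and differ between panels), by tissue code within NIL-Gn1 (left, blue) and Koshihikari (right, orange). Points are libraries, horizontal lines means and bars SD where a group has more than 1 library. OsSPL10 and ONI1 separate late from early libraries in both lines, and ROC3 overlaps in NIL-Gn1.

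No other list held a member. Of the eligible genes, the members were 0 of 3 floral organ MADS-box genes, 0 of 5 flowering MADS-box and florigen pathway genes, 0 of 10 branch and spikelet regulators, 0 of 10 YABBY and polarity genes, 0 of 8 KNOX, BELL and stem cell genes, 0 of 15 growth-regulating factors, 0 of 10 auxin, 0 of 5 cytokinin and 0 of 5 gibberellin genes on the lists, 0 of 4 photosynthesis genes outside CAB/LHC, 0 of 1 heat shock gene, 0 of 8 cell cycle genes, 0 of 4 cellulose synthases, 0 of 8 grain size genes and 0 of 3 constitutive controls. Many floral organ identity genes fell under the minimum of 100 UMIs (OsMADS1 and OsMADS5 had 8 and 23 UMIs), so these counts say little about them. The lists name only 4 of the 133 members. The tables used pair no names with the other identifiers.

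The largest ratios belonged to loci with an identifier alone. LOC_Os10g05990 had 37.8 CPM at R4 and 223 and 195 CPM at R5 in NIL-Gn1, against 0 to 7.70 CPM (median 0) early. In Koshihikari it had 18.3, 60.3 and 18.8 CPM at R4 and 201, 182 and 103 CPM at R5, and no UMI in any of the 10 early libraries. Its ratio was 73.8 (30.2 to 234) in NIL-Gn1. In Koshihikari its late level was 44.6 times a limit of 3 counts over the early group, a value that leaves out the error of the late count. LOC_Os03g14140 had 265 CPM at R4 and 1085 and 730 CPM at R5 in NIL-Gn1, against 0 to 59.5 CPM (median 14.5) early. In Koshihikari it had 174, 207 and 310 CPM at R4 and 843, 948 and 500.3 CPM at R5, against 0 to 41.1 CPM (median 2.39) early. Late and early libraries of both loci were apart in both lines. For LOC_Os10g05990 in Koshihikari this rests on few counts, with 2 UMIs each in R4 replicates 2 and 4. Their levels lie within the 12.05 to 36.5 CPM that a count of 0 allows in the early Koshihikari libraries. The ratio of LOC_Os03g14140 was 30.5 (23.1 to 40.8) in NIL-Gn1 and 67.3 (36.2 to 142) in Koshihikari.

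Some members lay close together. Within 10 places of each other, in the order of the counted loci along a chromosome, there were 6 pairs, holding 10 members. LOC_Os10g05950, LOC_Os10g05970 and LOC_Os10g05990 formed a run on chromosome 10, all 3 with large ratios: LOC_Os10g05950 had 20.7 in NIL-Gn1 and 42.1 in Koshihikari, and LOC_Os10g05970 had 23.7 and 50.1. LOC_Os10g05950 had pooled levels of 4.02, 30.7, 413 and 298 CPM at R1, R2, R4 and R5 in NIL-Gn1, and 6.61, 10.4, 283 and 405 CPM in Koshihikari. LOC_Os10g05970 had 1.34, 14.3, 34.4 and 341 CPM in NIL-Gn1, while Koshihikari had 1.32, 6.95, 142 and 229 CPM, so that R4 was low in the single NIL-Gn1 library only. These neighbours were chosen after their values were seen, and reads shared between similar neighbouring copies could not be checked here. A looser run on the same chromosome held LOC_Os10g33250, with ratios of 17.5 in NIL-Gn1 and 12.04 in Koshihikari, beside LOC_Os10g33270 (2.64 and 2.96) and LOC_Os10g33370 (2.41 and 2.68). By chromosome, members were 2.47% of the loci on chromosome 10, the most, and 0.731% on chromosome 9, the least. Chromosome 3 held 24 members, or 1.66% of its loci.

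The rule pools R4 with R5 and asks for no order between them, but it used their values: members that R4 alone would not have brought in had to be high at R5, and the reverse. The order of R5 and R4 is therefore a description, and the choice of members bears on the difference from all loci. R5 was above R4 in 77 members in NIL-Gn1 and in 103 in Koshihikari, against 48.6% and 48.1% of all 9375 loci. The median R5 over R4 ratio of the members was 1.101 in NIL-Gn1 and 1.296 in Koshihikari, and that of all loci was 0.978 and 0.983. R5 was higher in both lines in 64 members (48.1% of them, against 24.8% of all loci) and lower in both in 17 (12.8%, against 28.1%). Across the 133 members the R5 over R4 ratios of the 2 lines had a Spearman correlation of 0.46, against 0.05 across all loci. Members were chosen on R4 and R5 values in both lines, and NIL-Gn1 R4 is 1 library, so nothing is read from this difference. Photosynthesis genes outside CAB/LHC moved in the same order, with means of 313 CPM at R5 and 145 CPM at R4 in NIL-Gn1 and of 624 CPM at R5 and 374.8 CPM at R4 in Koshihikari. Their part in the order of the members was not tested.

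In the edgeR quasi-likelihood fit with Benjamini-Hochberg adjustment over 7406 loci, 129 members passed the filter on low counts. No member was called for R5 against R4 in Koshihikari at an adjusted p under 0.05, and 0% of all loci were. At an unadjusted p under 0.05 there were 23 members (20 higher and 3 lower at R5), or 17.8% of those tested, beside 7.24% of all loci. In Koshihikari 128 members met the ratio with R5 taken alone and 112 with R4 taken alone, and in NIL-Gn1 111 and 111. The rule used these R4 and R5 values, so nothing is read from the excess at an unadjusted p. The median fitted log2 difference was 0.41 in the members tested and 0.00 in all loci, and 103 of 129 members were above 0. DESeq2 also called 0 members, and limma-voom called 1, LOC_Os03g14140 (adjusted p = 0.00568). In the edgeR fit the log2 difference of that locus was 1.76 (SE 0.47, adjusted p = 0.341), and that of LOC_Os10g05990 was 2.30 (SE 0.65, adjusted p = 0.303). A fit of only the R4 and R5 libraries of Koshihikari called both, with adjusted p-values of 4.87e-05 and 0.0343, and an edgeR fit with no filter called LOC_Os03g14140 (0.00901), so these calls depended on the fit.

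Both lines had R5 at 2 times R4 or more in 6 of the 133 members, beside 144 of all 9375 loci (1.54%). The 6 members were LOC_Os03g52860, LOC_Os04g59190, LOC_Os10g05990, LOC_Os05g04380, LOC_Os03g14140 and LOC_Os01g64490, listed by identifier after their values were seen. LOC_Os04g59190 had 23.3 CPM early, 20.6 CPM at R4 and 147 CPM at R5 in NIL-Gn1, and 33.03, 24.1 and 133.3 CPM in Koshihikari, so that its late ratio came from R5 alone. LOC_Os03g52860 had R5 over R4 ratios of 9.39 in NIL-Gn1 and 7.67 in Koshihikari and rested on few libraries: of its R5 values, 218 CPM in NIL-Gn1 replicate 1 and 162 CPM in Koshihikari replicate 2 stood high, and the other R5 libraries had 13.03 CPM (NIL-Gn1) and 36.5 and 7.36 CPM (Koshihikari). Without either of those 2 libraries it no longer met the rule.

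The opposite order was seen in ROC3, with pooled levels of 122 CPM at R5 and 251 CPM at R4 in NIL-Gn1 and of 205 CPM at R5 and 268 CPM at R4 in Koshihikari. ROC6 had 86.1 CPM at R5 and 203 CPM at R4 in NIL-Gn1 but 123 CPM at R5 and 118 CPM at R4 in Koshihikari. LOC_Os06g44300 had R5 over R4 ratios of 0.384 in NIL-Gn1 and 0.464 in Koshihikari, the only member at 0.5 or less in both. In the edgeR fit, R5 minus R4 in Koshihikari on the log2 scale was 1.14 (SE 0.57) for OsPAL1, 0.76 (SE 0.39) for OsIAA13, 0.72 (SE 0.44) for OsSPL10, 0.21 (SE 0.27) for ONI1, 0.10 (SE 0.45) for ROC6 and -0.36 (SE 0.31) for ROC3. Adjusted p-values over the 7406 loci were 0.691 to 0.988, so none of these differences was called. For OsIAA13 the Koshihikari libraries of R5 (224, 264 and 191 CPM) all lay above those of R4 (165, 155 and 84.5 CPM), while for OsPAL1 the lowest R5 library lay within the R4 range.

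**Figure D5:**
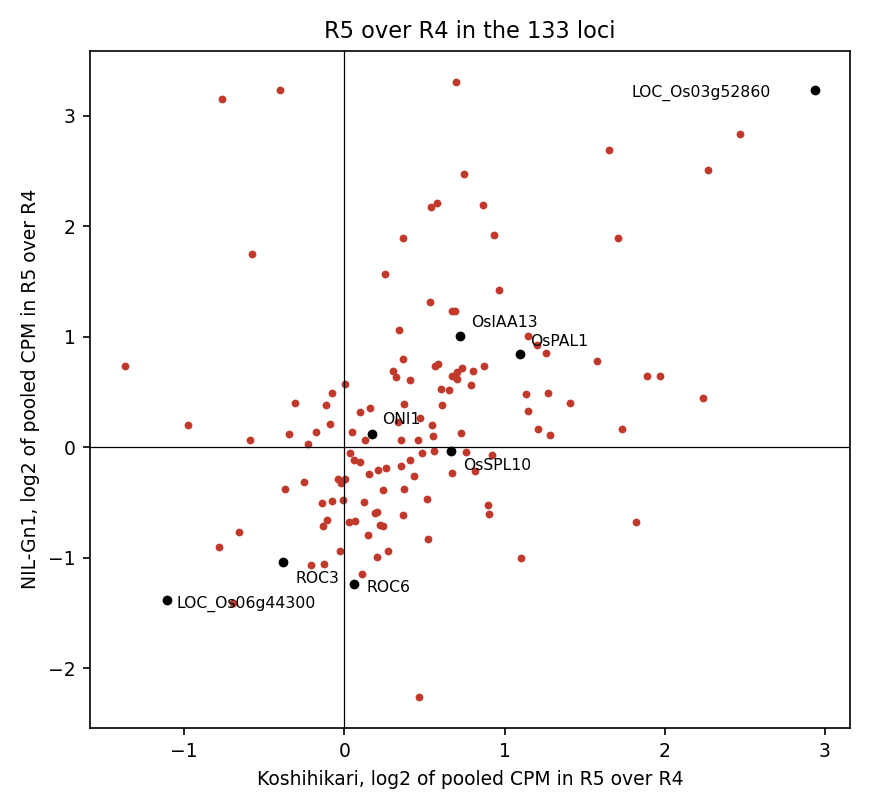
Log2 of pooled CPM in R5 over R4 for each member in Koshihikari (x axis) and NIL-Gn1 (y axis), with 8 members in black and named. Points in the upper right quadrant (64 members) were higher at R5 in both lines and those in the lower left (17) were higher at R4 in both.

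Within early tissue, R2 was above R1 in 76 members in NIL-Gn1 and 73 in Koshihikari, against 49.5% and 46.6% of all loci, with median ratios of 1.08 and 1.06. R2 was higher in both lines in 44 members (33.1%, against 22.9% of all loci) and lower in both in 27 (20.3%, against 26.8%). R2 was at 2 times R1 or more in both lines in 4 of the 133 members, beside 10 of all 9375 loci (0.107%). The rule divides by R1 with R2, so members were chosen for low early levels. Ratios of such low counts vary by counting error, and nothing is read from these differences from all loci. The Spearman correlation of the R2 over R1 ratios between lines was 0.10 across 132 members. No member was called by edgeR for R2 against R1 averaged over the lines, as was no locus at all (0% called), nor by DESeq2 or limma-voom. At an unadjusted p under 0.05 there were 11 members (8.53%), against 7.16% of all loci. In a fit of the early groups alone, 26 members passed the filter and 0 were called. Most of the 129 thus passed in a fit that held the late libraries, where the rule makes them high. Nothing is read from this share. LOC_Os03g14140 had pooled levels of 8.71, 32.04, 265 and 987 CPM at R1, R2, R4 and R5 in NIL-Gn1 and 2.64, 13.9, 229 and 749 CPM in Koshihikari, so each pooled level stood above the one listed before it. Its step from R1 to R2 rests on few counts. In Koshihikari the only R1 UMIs were 2 in replicate 5, and R2 libraries had 0 to 4. In NIL-Gn1 R1, replicate 6 held 7 UMIs and the others 0 to 3.

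Few members differed between the lines by the test. For NIL-Gn1 minus Koshihikari averaged over R1 and R2, edgeR called 45 loci higher (0.608%) and 127 lower (1.71%) of 7406, among them 0 members higher and 1 lower. That member was LOC_Os03g56220, at 75.2 to 189 CPM (median 96.4) in 16 early NIL-Gn1 libraries and 105 to 243 CPM (median 169) in 10 early Koshihikari libraries. The ranges overlapped, and the log2 difference was -0.60 (SE 0.16, adjusted p = 0.0226). The call was lost without Koshihikari R1 replicate 1 (adjusted p = 0.0520), R2 replicate 2 (0.0563) or R2 replicate 5 (0.0787), with Koshihikari R2 reduced to replicates 2 and 3 (0.232) and with no filter (0.0944). In late tissue it had 282 CPM at R4 and 262 and 300 CPM at R5 in NIL-Gn1, and 228 to 402 CPM (median 361) in Koshihikari. The median log2 difference of the 129 members in early tissue was 0.16, against 0.02 for all loci, and 85 of them were above 0. This median was -0.0037 with the replicate block, 0.040 with limma-voom and 0.0066 in a fit of the early groups alone, where 26 members were tested. At an unadjusted p under 0.05 there were 11 members (8.53%), against 14% of all loci. The fit did not leave out the chromosome 1 and chromosome 12 stretches, from which no member could come. The shares of members and of all loci are thus not over like sets, and nothing is read from their difference.

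For NIL-Gn1 minus Koshihikari averaged over R4 and R5, edgeR called 31 loci higher (0.419%) and 27 lower (0.365%), and no member. DESeq2 and limma-voom called no member either. At an unadjusted p under 0.05 there were 3 members higher and 3 lower (4.65%), against 13.5% of all loci. Here too the fit kept the chromosome 1 and chromosome 12 stretches, so nothing is read from this difference. The members' median log2 difference was -0.01, and 64 of 129 were above 0. The replicate block moved it to -0.094, and leaving out R5 replicate 1 of NIL-Gn1 to -0.27 or replicate 2 to 0.077. Since the rule asks for a minimum ratio in both lines, loci that met it in 1 line only are not among the members, which bears on this comparison. The rule sets no upper bound on a ratio and does not compare levels between the lines. Of the named genes, the log2 differences in late tissue were 0.77 (SE 0.44) for OsPAL1, 0.37 (SE 0.36) for OsSPL10, 0.12 (SE 0.38) for ROC6, 0.08 (SE 0.23) for ONI1, -0.42 (SE 0.34) for OsIAA13 and -0.45 (SE 0.27) for ROC3. Adjusted p-values were 0.462 to 0.943. NIL-Gn1 has 3 late libraries, which limits what this comparison can detect, and a p that misses the threshold does not show that the lines are alike.

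The set itself leaned on the late NIL-Gn1 libraries. Without NIL-Gn1 R4 replicate 1, 33 of the 133 members no longer met the rule, without R5 replicate 1, 30, and without R5 replicate 2, 8. The most for any late Koshihikari library was 18. Over all 35 omissions 67 members always met the rule, among them OsSPL10, ROC6, ONI1, OsIAA13, LOC_Os10g05990 and LOC_Os03g14140. ROC3 no longer met it without NIL-Gn1 R4 replicate 1, and OsPAL1 without Koshihikari R5 replicate 2. Of the late libraries, NIL-Gn1 R5 replicate 2 held the lowest level of 75 members in its line, and Koshihikari R4 replicate 4 of 48 members in its own.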

How the data were processed

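Counts of 35 CEL-Seq2 libraries were taken as deposited: raw whole-number UMI counts per MSU locus, not normalized by the authors. Bowtie2 and Subread 2.1 are named per the submitters' processing notes; their roles, the genome build and strand handling are not given in the sources used here. Totals were 76743 to 375071 UMIs. Groups are the line and tissue code that the labels give. Levels are CPM on raw totals. Ratios carry exact 95% binomial intervals, which cover counting error only, as does the limit of 3 counts.

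The members were chosen by late over early pooled CPM, and the members and gene lists were chosen with earlier results of these data known. Named are all members on the lists, at most 2 called members per test and direction, the 2 with the largest lower ratio and the loci at the threshold, with OsIAA13, OsPAL1 and other identifiers added after their values were seen. Symbols were compared with RefSeq by chromosome and gene order, since it holds no MSU identifiers. Of the symbols compared 124 had 1 entry on the same chromosome, 122 of them in the same order. Another 11 had 1 entry on another chromosome, 18 had several entries, and 69, ONI1 and TAW1 among them, were not in RefSeq.

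Counts were fitted with edgeR 4.0.16 in R 4.3.3 (TMM, filterByExpr, robust quasi-likelihood F-test, 8 group coefficients, all 35 libraries). The 7406 loci kept held 86.7% of UMIs, and the common dispersion was 0.0444. P-values were adjusted by Benjamini-Hochberg within each comparison. The SE is the log2 difference over the square root of F. The 4 comparisons tested were the lines in early and in late tissue, R2 against R1, and R5 against R4 in Koshihikari. They are not the contrast the rule used, though they share its libraries, and the rule's choice of members bears on each. The fit was tested on simulated data. Alternatives were other scalings, filters and tools (DESeq2 1.42.0, limma 3.58.1 with voom), a fit of only the groups compared, a replicate block and leaving out each library. Reducing Koshihikari R2 to replicates 2 and 3 was added after the data were seen. Tables used Python 3.11.15 (pandas 2.3.3, scipy 1.17.1), and plots matplotlib 3.10.9. No 2 libraries of a group were duplicates: the lowest chi-square per degree of freedom over 83 pairs was 1.37.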

Additional observations from a re-analysis of the deposited data

Results flagged for a closer look

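In 38 sets of 5 or 8 libraries of a group (the 9 loci followed most closely and the summed share of the 133 loci), 4 single libraries lay far from the rest of their group by Dixon's criterion, and chance gives about 1 in 20. OsSPL10 had 32.2 CPM in Koshihikari R1 replicate 3, against 9.27 CPM or less in the other R1 libraries, and all late Koshihikari libraries were at 103 CPM or more. OsIAA13 had 97.4 CPM in Koshihikari R2 replicate 5, with 30.9 CPM as the next value, which put this early library inside the late range of 84.5 to 264 CPM. LOC_Os03g14140 had 8.03 CPM in Koshihikari R1 replicate 5 and 0 in the other 4 libraries, a level under the limit of 12.05 to 27.8 CPM that a count of 0 allows in these libraries. The same locus had 53.9 CPM in NIL-Gn1 R1 replicate 6, with 16.1 CPM as the next value. The interactions of line with R2 against R1 and with R5 against R4 gave 0 members by edgeR, with 11 (8.53%) and 8 (6.20%) at an unadjusted p under 0.05 of 129 tested, against 6.02% and 3.58% of the 7406 loci, of which 0 and 1 were called. The second interaction rests on 1 NIL-Gn1 library at R4.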

How the results depend on the processing

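The number of members was 223 with a minimum of 50 UMIs, 78 with 200 UMIs and 58 with a ratio of at least 3, and 109 to 146 when each library was left out. It was 138 with the mean of single-library CPM (122 shared with the 133), 153 with TMM-scaled and 167 with upper quartile scaled totals. Members called between the lines in early tissue numbered 0 to 2 over the omissions: 0 without Koshihikari R1 replicate 1, R2 replicate 2 or R2 replicate 5, and 2 without Koshihikari R1 replicate 3 or NIL-Gn1 R2 replicate 1, where LOC_Os03g53800 was added as higher in NIL-Gn1. The 1 call was another locus with no filter (LOC_Os03g53800) and when Koshihikari R2 kept only replicates 2 and 3 (LOC_Os01g01450), both higher in NIL-Gn1. For R5 against R4 in Koshihikari the count was 1 with no filter, 1 with limma-voom and 2 when the fit held those R4 and R5 libraries alone. The counts for the lines in late tissue and for R2 against R1 were 0 under every alternative run. The line difference in late tissue could not be fitted without NIL-Gn1 R4 replicate 1, the only library of its group. The cause of these changes was not tested.

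Same-numbered libraries showed no clear shared deviation (23 pairs, correlations of -0.067 to 0.051). This check cannot exclude a pairing by number that is small beside the counting error of these libraries. With the replicate block the members called were 1 between the lines in early tissue and 0 in the other 3 comparisons, while calls over all loci fell to 110 in early and 27 in late tissue, against 172 and 58. In late tissue the line difference changed sign under the block for OsSPL10 (-0.30) and ONI1 (-0.061). Over the omissions it ran from -0.17 to 0.60 for OsSPL10, from -0.030 to 0.54 for ROC6 and from -0.28 to 0.27 for ONI1, and R5 minus R4 of ROC6 ran from -0.19 to 0.94. None of these was called in any setting.

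With 3 counts equal to 8.00 to 39.1 CPM, early levels of the members (medians of 27.0 and 24.0 CPM) lie near the limit of a single library, and the 3 late NIL-Gn1 libraries set the precision there.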
